A study of Mus musculus with 9 samples.

Results

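The numbered Zfp genes are the mouse genes named Zfp followed by a number alone, most of which encode proteins with C2H2 zinc fingers. They were described here in bone marrow-derived macrophages, cells grown from mouse marrow. A gene was taken as a member when its symbol had that form, it was not Zfp36 and its mean level over the 9 libraries of the study was at least 5 CPM (counts scaled to a fixed total per library). This gave 162 members among the 306 numbered Zfp genes of the deposited table, which holds 13593 genes in all. The members were thus chosen by their mean level over the same libraries, which is given below as a description only. Zfp667, Zfp606 and Zfp429 lay just inside the limit with means of 5.07, 5.21 and 5.27 CPM, and Zfp719, Zfp202 and Zfp971 lay just outside it with 4.87, 4.80 and 4.74 CPM. All 162 members passed the filter on low counts in both fits used below, and 140 of the 144 genes below the limit passed it in the fit of all 9 libraries.

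The study measured RNA from cells given 4 nM of CCL26 (3 libraries), 4 nM of CX3CL1 (3 libraries) or 4 nM of bovine serum albumin, BSA (3 libraries), for 4 hours. All cells came from wild type C57BL/6 mice of 6 weeks, and their marrow had been kept for 7 days in medium with 15% supernatant of L929 cells, a fibroblast line that secretes macrophage growth factor. CX3CL1 and CCL26 are chemokines and BSA is the protein control. Nothing in the labels ties the libraries of a group to separate mice or cultures. A p-value here can therefore rest on technical spread alone.

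A C2H2 zinc finger is a short loop of protein held by a zinc ion between a pair of cysteines and a pair of histidines, and proteins with several fingers in a row bind DNA by reading a few bases with each finger. Many of these proteins carry a KRAB domain, which recruits the corepressor Trim28 and with it enzymes that lay down heterochromatin, best known for silencing transposable elements. Others act outside transcription, in ribosome quality control, protein ubiquitination or chromosome segregation.

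The members spanned 19 chromosomes, with 36 on chromosome 7 and 23 on chromosome 17. A pattern search of translated coding sequence, read for 161 of them, found a median of 9 finger motifs per protein, from 0 to 36. A short KRAB pattern was found in 69 members and not in 92, and divergent KRAB boxes can be missed by it. Of the 162 members, 47 overlapped an exon of another gene and 16 shared at least 10% of their stretches of 100 bases with another gene. Reads of these 50 genes in all may be split between neighbours or copies, and 112 members had neither.

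How a finger is written in DNA is shown by 1 finger each of Zfp811 and Zfp948, the members with the largest called increase and decrease below. Each stretch ends with the linker that joins the finger to the next one. The coding bases are on chr17:32798315-32798398 (GRCm38, minus strand, finger 2 of Zfp811) and chr17:21587193-21587276 (plus strand, finger 1 of Zfp948). Capitals mark the codons of the cysteines and histidines that hold the zinc. Linkers included, the 2 stretches are identical at 47 of 84 bases (56%).
Zfp811: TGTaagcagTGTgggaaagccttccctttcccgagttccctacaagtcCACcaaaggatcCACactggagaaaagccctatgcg
Zfp948: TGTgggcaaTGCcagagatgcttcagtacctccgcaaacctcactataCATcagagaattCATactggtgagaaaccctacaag

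Upstream DNA is shown for 4 members whose values recur below, Zfp811 and Zfp948 on chromosome 17, Zfp263 on chromosome 16 and Zfp445 on chromosome 9. Each line holds the 250 bases before the RefSeq start (GRCm38.p6), written along the strand of the gene, at chr17:32809932-32810181 (minus), chr17:21566728-21566977 (plus), chr16:3743849-3744098 (plus) and chr9:122866007-122866256 (minus). Capitals mark any match, on either strand, to the GC box GGGCGG, the CCAAT box CCAAT, the E box CACGTG, the AP-1 motif TGANTCA, an interferon response motif (GAAA, any 2 bases, GAAA) or the ETS core CCGGAAG. No matches overlap in these 4 windows.
Zfp811: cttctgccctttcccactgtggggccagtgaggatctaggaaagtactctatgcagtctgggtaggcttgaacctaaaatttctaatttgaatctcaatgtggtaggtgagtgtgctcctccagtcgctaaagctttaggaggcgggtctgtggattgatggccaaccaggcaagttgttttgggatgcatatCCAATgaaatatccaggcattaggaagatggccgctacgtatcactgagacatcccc
Zfp948: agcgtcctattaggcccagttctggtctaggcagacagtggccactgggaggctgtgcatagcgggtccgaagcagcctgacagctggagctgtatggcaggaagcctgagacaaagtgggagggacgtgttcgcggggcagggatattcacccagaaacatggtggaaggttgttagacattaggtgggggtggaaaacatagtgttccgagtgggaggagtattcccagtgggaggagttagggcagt
Zfp263: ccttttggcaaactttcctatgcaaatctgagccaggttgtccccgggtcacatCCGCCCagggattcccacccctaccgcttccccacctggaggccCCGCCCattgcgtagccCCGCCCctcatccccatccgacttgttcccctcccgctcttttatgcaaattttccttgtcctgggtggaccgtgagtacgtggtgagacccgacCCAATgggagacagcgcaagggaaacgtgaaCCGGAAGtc
Zfp445: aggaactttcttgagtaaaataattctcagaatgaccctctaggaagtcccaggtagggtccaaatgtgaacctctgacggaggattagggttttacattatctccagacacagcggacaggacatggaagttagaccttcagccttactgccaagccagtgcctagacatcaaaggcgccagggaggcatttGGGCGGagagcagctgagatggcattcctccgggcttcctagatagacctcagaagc

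Zfp263 held 3 GC boxes, 1 CCAAT box and 1 ETS core, Zfp811 held 1 CCAAT box, Zfp445 held 1 GC box, and no match was found in the window of Zfp948. RefSeq promoters were matched for 132 members, and 56.1% of them held a GC box, against 62.8% of 7315 other genes of at least 5 CPM and 32.9% of all 27025 promoters. A CCAAT box was in 46.2% of the members' windows, against 36.4% of those other genes and 34.5% of all promoters. The ETS core was in 15.2%, against 16.1% and 7.05%, and the E box was in 8.33%, against 9.45% and 6.05%. The AP-1 motif was in 4.55%, against 4.06% and 6.87%, and the interferon response motif was in 0.758%, against 2.90% and 3.04%. A match describes letters in the window and not a bound site.

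Libraries held from 16923982 to 23198324 counts. CX3CL1 replicate 1 stood apart from the other 8 libraries over the whole table: its chi-square per degree of freedom against the other CX3CL1 libraries was 284 and 336, while the other pairs within groups gave 3.91 to 8.65. It had no count in 1193 genes, against 80 to 170 genes in each other library. The summed level of 10 macrophage markers was 43260 CPM in that library, of which Lyz2, a lysozyme, made 36700 CPM, that of 9 granulocyte genes 183 CPM, and that of 2 B cell genes 70.9 CPM. In the CCL26 and BSA libraries these sums ran from 25130 to 31500, from 64.8 to 84.3 and from 17.3 to 25.6 CPM. The macrophage markers went both ways there: 6 lay above their BSA mean and 4 below it, among them Adgre1, at 1650 CPM against a BSA mean of 3048 CPM, and Mrc1, at 427.7 CPM against 986.1 CPM. Because of this library each comparison was fitted with all 9 libraries and with 8, leaving it out.

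The Zfp genes were low in CX3CL1 replicate 1. They held 0.276% of its counts, against 0.465% and 0.467% in the other CX3CL1 libraries, 0.481% to 0.495% in the CCL26 libraries and 0.457% to 0.459% in the BSA libraries. The median member lay 0.48 below its BSA mean on the log2(CPM + 0.5) scale in that library (SD over members 0.96, n = 162), while the median of 9170 other genes of at least 5 CPM lay 0.06 below (SD 1.02). Of the 162 members, 99 were lower there than in all other 8 libraries (61.1%, against 44.6% of the other genes) and 26 were higher (16%, against 39.2%). Fewer cells of a type and less RNA per cell cannot be told apart in such bulk libraries.

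**Figure D1:**
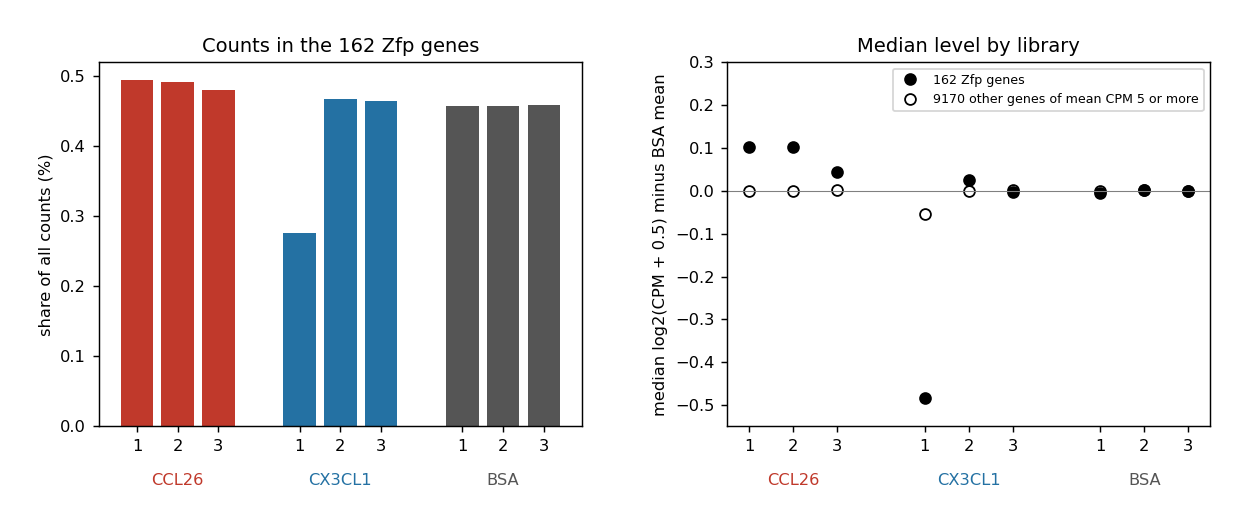
The left panel plots the share of all counts (%) that fell in the 162 Zfp genes in each library, replicates 1 to 3 of each group, and the right panel plots the median log2(CPM + 0.5) minus the BSA mean for the Zfp genes (filled) and for 9170 other genes of mean CPM 5 or more (open). CX3CL1 replicate 1 lies at 0.276% and at -0.48, apart from the other 8 libraries, and the Zfp medians of the 3 CCL26 libraries lie at 0.10, 0.10 and 0.04.

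The members were not all low in that library. Zfp292, which is known for binding the growth hormone promoter, stood at 8.21 CPM there, against 53.9 and 45.5 CPM in the other CX3CL1 libraries and 52.6, 50.7 and 51.7 CPM in the BSA libraries. Zfp267 stood at 0.265 CPM, against 8.34 and 6.55 CPM in the other CX3CL1 libraries and 5.44 to 7.96 CPM with BSA. Both lay below every other library of those groups. In the opposite direction Zfp771 stood at 70.9 CPM, against 22.98 and 20.3 CPM in the other CX3CL1 libraries and 20.2 to 20.8 CPM with BSA. Zfp622, the counterpart of a yeast factor that matures the large ribosomal subunit, stood at 154.8 CPM, against 71.4 and 71.3 CPM in the other CX3CL1 libraries and 73.8 to 79.9 CPM with BSA. Zfp267 and Zfp771 were chosen after their values were seen, as the lowest and the highest of this difference. In all, 47 members (29%) were lower than their BSA mean by a factor of 2 or more and 9 (5.56%) were higher by that factor, against 17.4% and 14.7% of the other genes.

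The difference between CX3CL1 replicate 1 and the BSA mean went with the length of the gene's merged exons. Across the 162 members Spearman's rho was -0.37, and across 9168 other genes it was -0.62; all these points share the 1 library, so no p is given. Genes were put into 4 length bins that hold like numbers of the other genes, with limits of 2928, 4624 and 7073 bases. From the shortest to the longest bin, the median difference of the members was 0.00, -0.40, -0.50 and -0.96 on the log2 scale (26, 40, 51 and 45 genes), and that of the other genes was 0.81, 0.09, -0.32 and -0.85. The members thus lay below other genes of like length in every bin, by least in the longest. The part of exon length in the low Zfp level of this library was not tested further.

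**Figure D2:**
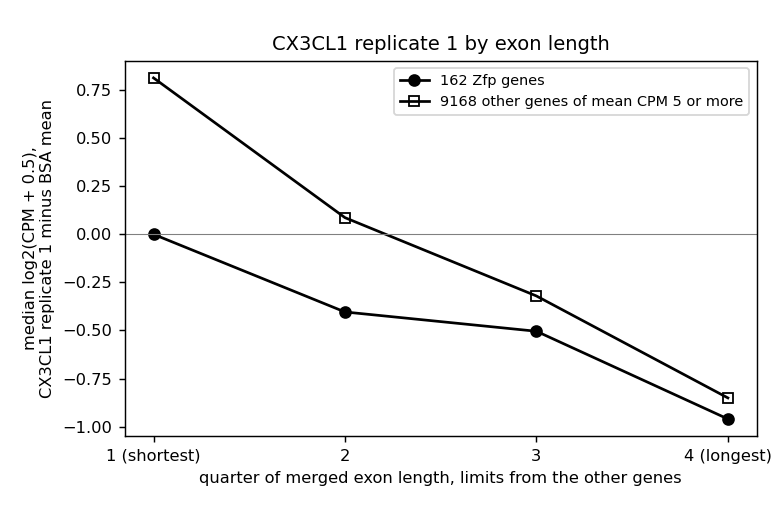
The plot shows, for 4 bins of merged exon length from shortest to longest, the median log2(CPM + 0.5) in CX3CL1 replicate 1 minus the BSA mean, for the 162 Zfp genes (filled circles) and for 9168 other genes of mean CPM 5 or more (open squares). The Zfp medians fall from 0.00 to -0.96 and those of the other genes from 0.81 to -0.85.

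With all 9 libraries in the fit, no member was called in any comparison, where called means an adjusted p under 0.05 from the quasi-likelihood test of edgeR over all 12915 tested genes. For CX3CL1 against BSA no member was called higher or lower, and the share of all tested genes called was 0% higher and 0% lower. For CCL26 against BSA the shares of all tested genes were 0.387% higher and 0.0465% lower, and for CCL26 against CX3CL1 they were 0.395% higher and 0.0155% lower. At an unadjusted p under 0.05 in edgeR there were 2 of 162 members higher and 2 lower, 9 and 4, and 15 and 2 in these 3 comparisons. Among all 12915 tested genes there were 288 higher and 117 lower, 493 and 299, and 657 and 827. DESeq2 called 3 members for CCL26 against BSA, 1 higher and 2 lower, and 1 higher for CCL26 against CX3CL1, and none for CX3CL1 against BSA, while limma-voom called none in any of them.

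The medians over the members in this fit carried the low library. The median log2 fold change was -0.13 for CX3CL1 against BSA, with 113 of 162 members negative, and -0.01 over the other genes of at least 5 CPM. For CCL26 against CX3CL1 it was 0.21, against 0.01 over the other genes. Without CX3CL1 replicate 1 these members' medians were 0.01 and 0.10. For CCL26 against BSA the smallest p in this fit belonged to Zfp948, Zfp811, Zfp1 and Zfp703, with log2 fold changes of -0.86, 1.19, -0.68 and -0.35 and adjusted p of 0.180, 0.215, 0.416 and 0.436 in edgeR. For CX3CL1 against BSA it belonged to Zfp948, Zfp358, Zfp821 and Zfp654, with log2 fold changes of -0.59, 0.67, 0.66 and -0.47, each with an adjusted p of 0.711 in edgeR. Zfp358 had 23.1 CPM in CX3CL1 replicate 1, against 10.8 and 15.1 CPM in the other CX3CL1 libraries, and Zfp821 had 26.6 CPM there, against 12.6 and 12.7 CPM. For CCL26 against CX3CL1 the members were Zfp263, Zfp811, Zfp513 and Zfp382, with 0.94, 0.96, 0.50 and 0.65, and adjusted p of 0.246, 0.378, 0.423 and 0.423 in edgeR.

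For CX3CL1 against BSA in 8 libraries no member was called by edgeR, DESeq2 or limma-voom. The shares of all 13245 tested genes called by edgeR were 0.0227% higher and 0.31% lower. At an unadjusted p under 0.05 in edgeR there were 7 of 162 members higher and 6 lower, against 444 and 547 of all 13245 tested genes. The members' median log2 fold change was 0.01, against 0.00 over the other genes of at least 5 CPM. The 4 members with the smallest p were Zfp948 (-0.49, adjusted p = 0.286 in edgeR), Zfp655 (-0.24, 0.345), Zfp654 (-0.26, 0.535) and Zfp106 (0.11, 0.535). CX3CL1 replicates 2 and 3 had 16.7 and 14.4 CPM of Zfp948, against 22.8, 21.8 and 20.8 CPM with BSA, so the 2 groups did not overlap for this gene although it was not called. Such a separation was common. Replicates 2 and 3 lay below all 3 BSA libraries in 19 members (11.7%), against 13.3% of all tested genes. They lay above them in 20 members (12.3%), against 12.7% of all tested genes. The CX3CL1 group holds 2 libraries in this fit, which limits what it can show.

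For CCL26 against BSA in 8 libraries 29 members rose (17.9%) and 9 fell (5.56%), and the other 124 were not called. Among all tested genes 9.74% were called higher and 9.26% lower, and among the 9170 other genes of at least 5 CPM 12.6% and 12.5%. The median log2 fold change of the 162 members was 0.10, with 105 of them positive, and that of the other genes was 0.00. The changes were small: the median size was 0.43 on the log2 scale among members that rose, which is 1.34-fold, and 0.30 among those that fell. Upper quartile scaling gave 25 higher and 13 lower. Leaving out 1 library at a time moved the count of higher members by over 1.5 times in 3 cases, to 18 without BSA replicate 1, 18 without BSA replicate 2 and 19 without CCL26 replicate 2.

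**Figure D3:**
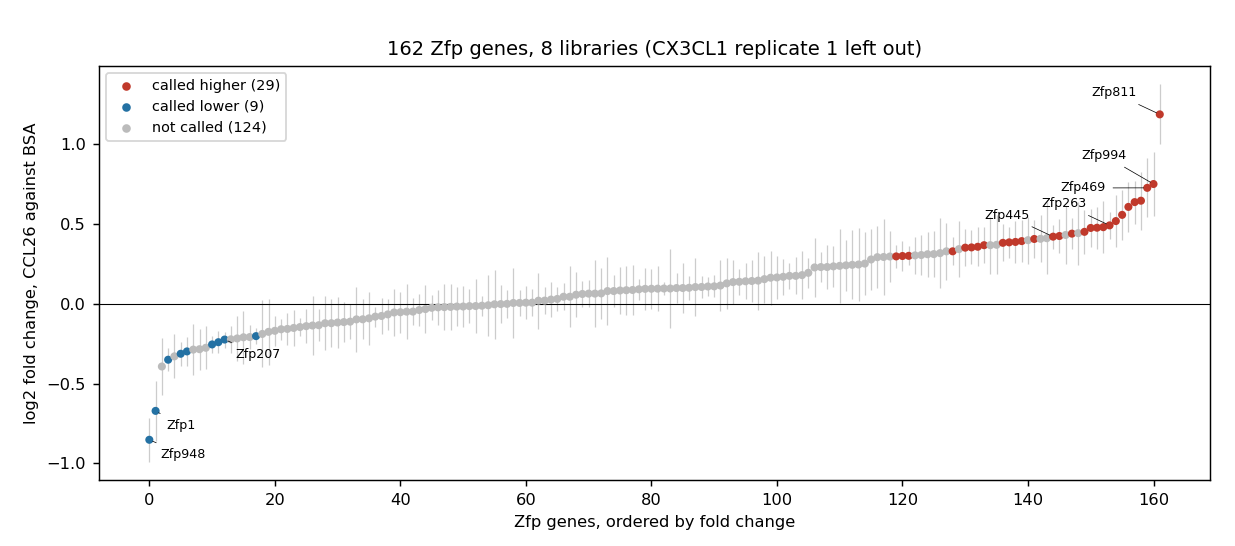
Each point is 1 of the 162 Zfp genes, ordered by the log2 fold change of CCL26 against BSA on the vertical axis, with bars of 1 standard error from edgeR; colours mark the 29 genes called higher, the 9 called lower and the 124 not called. Zfp811 stands at the upper end at 1.19 and Zfp948 and Zfp1 at the lower end at -0.85 and -0.67.

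All 3 CCL26 libraries lay above all 3 BSA libraries in 36 members (22.2%), against 16.6% of all tested genes and 19.2% of the other genes of at least 5 CPM, and below them in 17 members (10.5%), against 16.5% and 20%. The calls were made from these same libraries, so the overlap in called members adds no support to the calls. Among the called members, the CCL26 and BSA libraries did not overlap in 27 of 29 that rose and in 9 of 9 that fell. The exceptions were Zfp639 and Zfp65, named for this overlap after their values were seen. Zfp639 had 31.8, 32.5 and 23.1 CPM with CCL26 and 21.6, 23.5 and 22.3 CPM with BSA.

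The members are low genes, and low genes as a whole leaned upward with CCL26, so members were set beside other genes in bins of level. Members were put into 3 bins by mean CPM, which met at 11.1 and 24.2 CPM and held 54 members each. In the lowest bin 6 rose and 1 fell (11.1% and 1.85%), against 7.98% and 2.76% of 1378 other genes in that range. In the middle bin 14 rose and 1 fell (25.9% and 1.85%), against 11.8% and 3.52% of 1759 other genes. In the highest bin 9 rose and 7 fell (16.7% and 13.0%), against 13.9% and 17.4% of 6033 other genes. These are all other genes above 24.2 CPM, with no upper limit, while the highest member averaged 286.6 CPM. Levels in the highest bin were thus not matched. From low to high, the members' median log2 fold changes were 0.12, 0.14 and 0.02, and those of the other genes 0.07, 0.06 and -0.02. The share that rose was thus farthest from that of other genes in the middle bin. The difference between members and other genes was not tested.

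**Figure D4:**
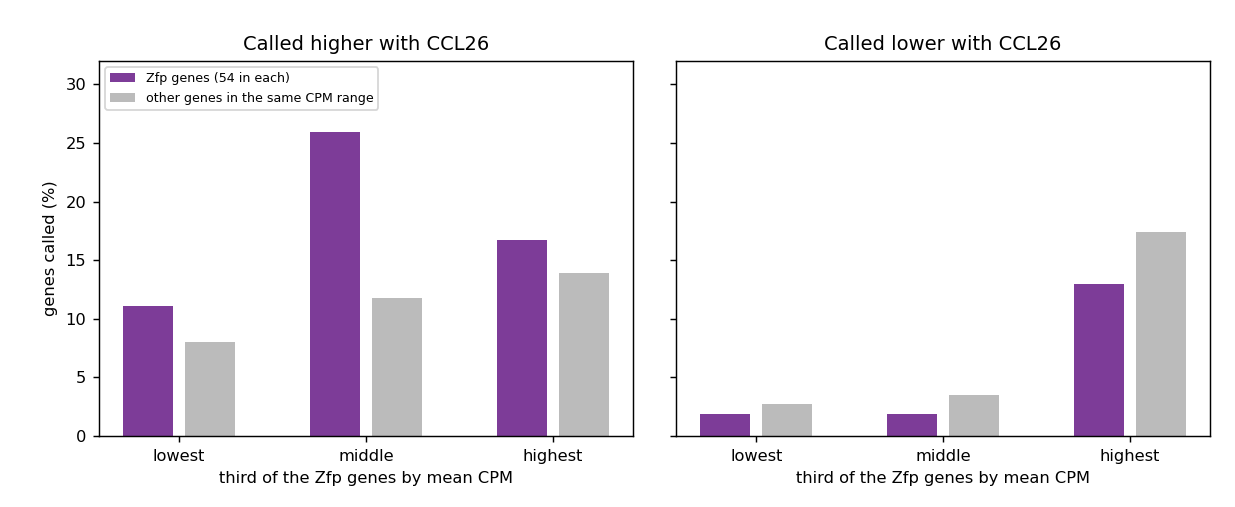
Bars give the percent of genes called higher (left) and lower (right) for CCL26 against BSA in 8 libraries, for the Zfp genes (purple) and for other genes in the same CPM range (grey), in 3 bins from lowest to highest mean CPM. For the other genes the highest bin has no upper limit, so levels are not matched there. In the middle bin 25.9% of the Zfp genes were called higher, against 11.8% of other genes.

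Zfp811 showed the largest increase. It had 17.8, 18.5 and 16.1 CPM in the CCL26 libraries, 10.7 and 8.83 CPM in CX3CL1 replicates 2 and 3, 7.42 CPM in CX3CL1 replicate 1, and 10.8, 7.34 and 4.81 CPM in the BSA libraries. Every CCL26 library lay above every other library, while the BSA libraries themselves differed by over 5 CPM. The log2 fold change of CCL26 against BSA was 1.19 ± 0.19 (SE), with an adjusted p of 4.62e-05 in edgeR. The gene (ENSMUSG00000055202) lies at chr17:32795676-32809931 on the minus strand of GRCm38 and encodes 13 finger motifs and a KRAB match.

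The next 7 members by size of increase were Zfp994, Zfp469, Zfp316, Zfp408, Zfp764, Zfp839 and Zfp90. Zfp994, also on chromosome 17, had 13.0, 10.7 and 8.25 CPM with CCL26 and 6.87, 7.50 and 4.59 CPM with BSA, a log2 fold change of 0.75 ± 0.20 (SE, adjusted p = 0.00837 in edgeR). Zfp469, whose human counterpart is mutated in brittle cornea syndrome, had 10.3, 7.58 and 13.0 CPM with CCL26 and 6.57, 5.92 and 6.17 CPM with BSA (0.73 ± 0.18, adjusted p = 0.00580 in edgeR), and 0.199 CPM in CX3CL1 replicate 1. GENCODE M21 lists the Zfp469 entry as a lincRNA of 3082 bases with no coding sequence, so its counts are those of that noncoding annotation. In both Zfp994 and Zfp469 the 3 CCL26 libraries stood above the 3 BSA libraries but spread widely among themselves.

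Zfp408, whose human counterpart is linked to inherited retinal disease, averaged 15.6 ± 0.86 CPM with CCL26 and 10.1 ± 1.01 CPM with BSA (SD, n = 3 each), a log2 fold change of 0.64. Zfp316, Zfp764, Zfp839 and Zfp90 had log2 fold changes of 0.65, 0.61, 0.56 and 0.52, with adjusted p from 0.00730 to 0.0260 in edgeR. The CCL26 and BSA libraries did not overlap in any of these 5 genes. Zfp90 shares 74.7% of its stretches of 100 bases with another gene, so its counts are uncertain. Among all 29 members that rose, 8 overlapped an exon of another gene and 4 shared at least 10% of their stretches.

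Some of these calls were lost when 1 library was left out, although the fold changes kept their direction. The edgeR adjusted p of Zfp994 was 0.0679 without BSA replicate 3 and 0.0744 without CCL26 replicate 1, and that of Zfp316 was 0.0754 without BSA replicate 3. That of Zfp764 was 0.0594 without BSA replicate 2, and that of Zfp839 was 0.0554 without BSA replicate 2 and 0.0614 without CCL26 replicate 1. For Zfp90 it was 0.0797, 0.0538 and 0.0685 without BSA replicate 1, 2 or 3 and 0.121 without CCL26 replicate 2. Zfp811, Zfp469 and Zfp408 were called under all 13 alternatives tried.

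The members that fell were Zfp948, Zfp1, Zfp703, Zfp131, Zfp654, Zfp710, Zfp655, Zfp207 and Zfp91. Of these, Zfp703, Zfp710 and Zfp91 overlap an exon of another gene, so their counts are less certain. Zfp948 had 10.8, 15.1 and 10.3 CPM with CCL26, 16.7 and 14.4 CPM in CX3CL1 replicates 2 and 3, 12.3 CPM in CX3CL1 replicate 1, and 22.8, 21.8 and 20.8 CPM with BSA. Its BSA libraries stood above all 6 libraries given a chemokine. The log2 fold change of CCL26 against BSA was -0.85 ± 0.14 (SE, adjusted p = 5.7e-05 in edgeR). The gene (ENSMUSG00000067931) lies at chr17:21567008-21588699 on the plus strand and encodes 15 finger motifs with a KRAB match. It was called under all 13 alternatives.

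Zfp1 had 5.28, 5.66 and 3.91 CPM with CCL26 and 7.29, 8.62 and 7.87 CPM with BSA (-0.67 ± 0.19, adjusted p = 0.0126 in edgeR). Its adjusted p was 0.0654 without BSA replicate 2 and 0.0537 without CCL26 replicate 3. These 2 KRAB genes had the largest decreases, and the KRAB pattern was not found in the other 7 members that fell. Zfp703, in which the finger pattern was not found, is a corepressor whose human counterpart is amplified in luminal breast cancer. It had 49.5, 44.5 and 49.1 CPM with CCL26, 54.5 and 53.2 CPM in CX3CL1 replicates 2 and 3, and 60.1, 61.1 and 61.6 CPM with BSA. Its log2 fold change was -0.35 ± 0.07 (SE, adjusted p = 0.000844 in edgeR), and its CX3CL1 libraries lay between the other 2 groups.

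Several members that fell were among the most abundant. Zfp207, also called BuGZ, a protein of kinetochores and spindle microtubules, averaged 191.7 ± 14.01 CPM with CCL26 and 224.3 ± 6.06 CPM with BSA (SD, n = 3 each), a log2 fold change of -0.22. Zfp91, a ubiquitin ligase known in noncanonical NF-kB signalling, averaged 160.4 ± 9.63 CPM with CCL26 and 185.0 ± 6.84 CPM with BSA, a log2 fold change of -0.20. Zfp131, which also carries a BTB domain, averaged 58.1 ± 4.81 CPM with CCL26 and 72.4 ± 3.22 CPM with BSA, a log2 fold change of -0.31. The adjusted p of these 3 were 0.00217, 0.00619 and 0.00329 in edgeR, and the groups did not overlap in any of them.

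Zfp654, Zfp710 and Zfp655 fell by 0.30, 0.25 and 0.24 on the log2 scale. Zfp710 had 105.3, 100.8 and 108.7 CPM with CCL26, 125.3 and 125.2 CPM in CX3CL1 replicates 2 and 3, and 127.0, 120.4 and 128.8 CPM with BSA. For Zfp655 the 3 CCL26 libraries ran from 101.7 to 133.3 CPM and the 3 BSA libraries from 136.8 to 148.5 CPM. The adjusted p of Zfp655 in edgeR was 0.0946 without BSA replicate 1 and 0.0575 without CCL26 replicate 3, and that of Zfp654 was 0.0902 without BSA replicate 2 and 0.0508 without CCL26 replicate 2.

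**Figure D5:**
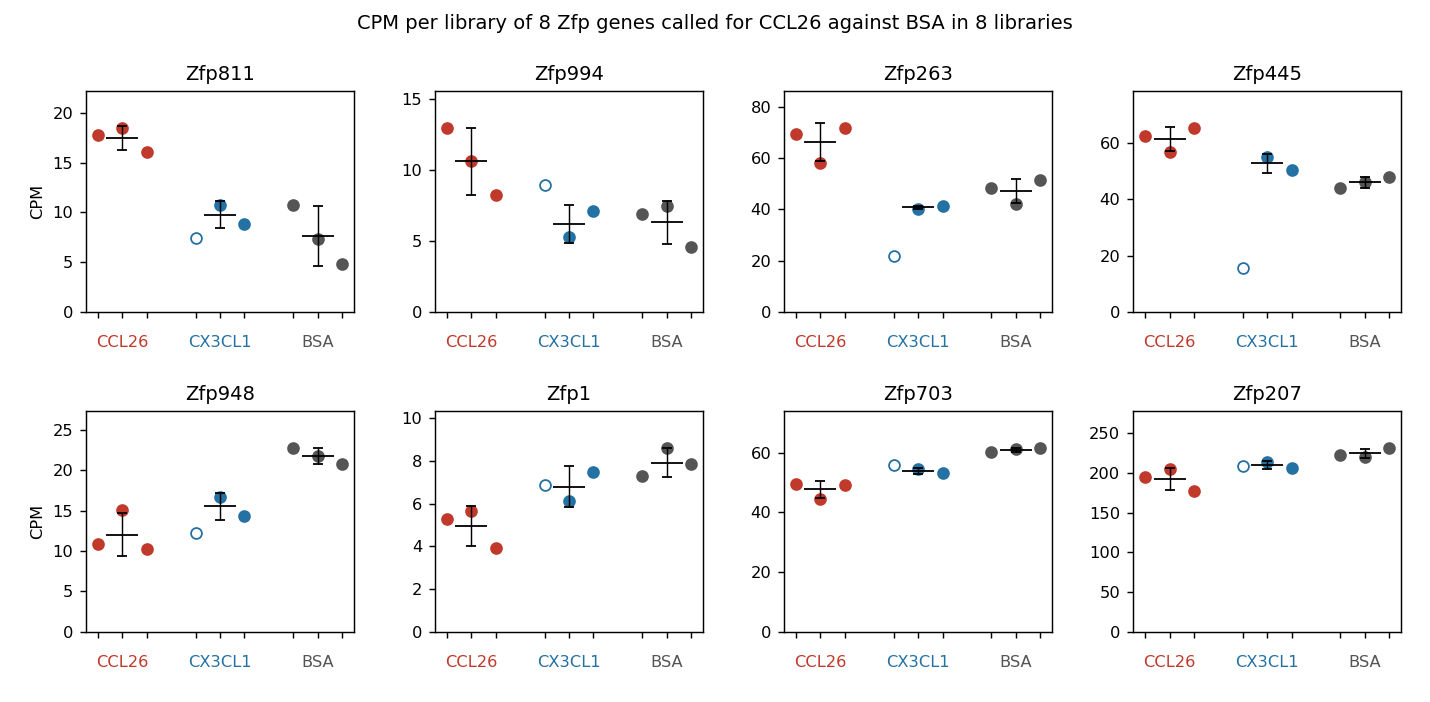
Points give CPM per library for 8 Zfp genes called for CCL26 against BSA, 4 that rose (top row) and 4 that fell (bottom row), for CCL26, CX3CL1 and BSA from left to right; the horizontal mark and bar are the mean and SD of 3 libraries, or of CX3CL1 replicates 2 and 3, and CX3CL1 replicate 1 is the open circle. In all 8 genes the CCL26 points lie apart from the BSA points, and Zfp263 and Zfp445 are lowest in CX3CL1 replicate 1.

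Of the 162 members, 29 belong to a list of 34 Zfp genes of known role that was drawn up for this description. With CCL26 against BSA 4 of them rose (Zfp263, Zfp281, Zfp445 and Zfp451) and 4 fell (Zfp703, Zfp131, Zfp207 and Zfp91), 13.8% each way, near the 12.6% and 12.5% of the other genes of at least 5 CPM. The median of the 30 listed genes that were tested, 1 of them below the CPM limit, was -0.01 on the log2 scale. Zfp445, which protects genomic imprints together with Zfp57, had 62.4, 56.8 and 65.4 CPM with CCL26, 55.1 and 50.5 CPM in CX3CL1 replicates 2 and 3, and 44.0, 46.1 and 48.1 CPM with BSA. The log2 fold change was 0.42 ± 0.08 (SE, adjusted p = 0.000218 in edgeR). All CCL26 libraries stood above all others, and CX3CL1 replicate 1 stood at 15.6 CPM.

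Zfp263 is known as a protein with SCAN and KRAB domains, but the short KRAB pattern was not found in it. It therefore counts among the members without that pattern. Zfp263 had 69.2, 58.0 and 71.7 CPM with CCL26, 40.3 and 41.1 CPM in CX3CL1 replicates 2 and 3, 21.9 CPM in CX3CL1 replicate 1, and 48.1, 42.2 and 51.4 CPM with BSA. It rose by 0.49 ± 0.09 against BSA and by 0.71 ± 0.10 against CX3CL1 (log2, SE), with adjusted p of 0.000151 and 1.36e-05 in edgeR. Its CX3CL1 libraries were the lowest of the 3 groups, although CX3CL1 against BSA was not called (-0.21, adjusted p = 0.648 in edgeR). Zfp281, a regulator of pluripotency in embryonic stem cells, averaged 47.2 ± 3.72 CPM with CCL26 and 37.7 ± 3.84 CPM with BSA (SD, n = 3 each). Zfp451, a SUMO ligase, averaged 34.6 ± 5.04 CPM with CCL26 and 25.9 ± 1.88 CPM with BSA. Their log2 fold changes were 0.33 and 0.43, with adjusted p of 0.00893 and 0.00425 in edgeR.

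The other 21 members of the list were not called for CCL26 against BSA. Among repressors of transposable elements and imprinted genes, Zfp809, which silences retroviruses by their primer binding site, averaged 12.7 ± 2.61 CPM with CCL26 and 13.0 ± 1.45 CPM with BSA (-0.03). Zfp568, which represses the placental transcript of Igf2, averaged 30.4 ± 1.91 CPM with CCL26 and 31.9 ± 2.67 CPM with BSA (-0.07). Both groups overlapped in these 2 genes.

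Among general regulators of transcription, the values in parentheses that follow are log2 fold changes of CCL26 against BSA, with edgeR adjusted p from 0.0721 upward. They were small for Zfp143, which binds promoters and small nuclear RNA genes (-0.02), Zfp148, which binds GC-rich promoters (0.09), Zfp410, which controls Chd4 (-0.16), and Zfp335, a partner of histone methyltransferase complexes (-0.17). Zfp592 (-0.08) and Zfp687 (0.16), whose human counterparts form a complex with each other, were not called. Zfp217, a partner of the CoREST complex in human cells, stood at -0.16, Zfp292 at 0.00 and Zfp24, needed for myelination, at -0.02. Zfp318, which controls IgD splicing in B cells, stood at 0.30, and Zfp516, which activates Ucp1 in brown fat, at 0.11.

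Among members that act on RNA, ribosomes or signalling, Zfp598, the ubiquitin ligase that senses collided ribosomes, averaged 46.5 ± 2.64 CPM with CCL26 and 44.6 ± 2.60 CPM with BSA (0.06). Zfp622 stood at 0.05, Zfp638 at 0.03, Zfp326, which links splicing to elongation, at -0.14, and Zfp346, which binds double-stranded RNA, at -0.05. Zfp110 and Zfp369, known as partners of the p75 neurotrophin receptor, stood at 0.20 and 0.30. None of these 7 was called.

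The most abundant member in CPM was Zfp106, an RNA-binding protein needed for motor neurons, with 311.9, 305.7 and 308.9 CPM with CCL26, 309.4 and 317.2 CPM in CX3CL1 replicates 2 and 3, 158.4 CPM in CX3CL1 replicate 1, and 280.6, 299.6 and 288.1 CPM with BSA. The groups with CCL26 and BSA did not overlap, but the gene was not called (0.10, adjusted p = 0.101 in edgeR). It shares 23.1% of its stretches of 100 bases with another gene. The next 9 in CPM were Zfp207, Zfp91, Zfp655, Zfp710, Zfp384, Zfp706, Zfp622, Zfp592 and Zfp871, with means over 9 libraries from 208.5 to 82.4 CPM. Zfp384, known for binding promoters of matrix genes and for gene fusions in human leukaemia, and Zfp706 were not called (0.11 and -0.14).

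Per kilobase of merged exons Zfp207 came first with 31.3 CPM per kb, before Zfp106 with 27.5, Zfp655 with 21.7, Zfp706 with 18.1, Zfp91 with 16.3 and Zfp710 with 16.1. The median member had 3.32 CPM per kb. These levels served to choose the members and are given without a test.

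For CCL26 against CX3CL1 in 8 libraries 8 members were called higher (4.94%) and 2 lower (1.23%), against 5.47% and 4.64% of all tested genes. Among the 9170 other genes of at least 5 CPM these shares were 7.35% and 6.46%. The members' median was 0.10 and that of the other genes of at least 5 CPM 0.00. The 8 were Zfp811 (0.85), Zfp994 (0.77), Zfp263 (0.71), Zfp46 (0.50), Zfp513 (0.47), Zfp704 (0.44), Zfp281 (0.41) and Zfp746 (0.34), and each of them was also called higher against BSA. This comparison shares its CCL26 libraries with the one above. Zfp46 had 31.2, 33.9 and 32.6 CPM with CCL26, 23.04 and 22.98 CPM in CX3CL1 replicates 2 and 3, and 8.08 CPM in CX3CL1 replicate 1 (0.50 ± 0.11, SE, adjusted p = 0.00276 in edgeR). Zfp746, also called PARIS, a repressor of Ppargc1a, averaged 31.6 ± 1.147 CPM with CCL26 (SD, n = 3) and 25.02 ± 0.347 CPM in CX3CL1 replicates 2 and 3 (SD, n = 2), with an adjusted p of 0.0447 in edgeR. The call of Zfp746 was lost under 8 of 13 alternatives, and its highest adjusted p was 0.238, without CX3CL1 replicate 2. With 1 CX3CL1 library left, Zfp994 and Zfp281 also lost theirs, Zfp811 and Zfp513 did so without CX3CL1 replicate 3 (adjusted p = 0.155 and 0.303) and Zfp704 without CX3CL1 replicate 2 (0.188). Zfp994 (0.102) also lost its call in a fit with the replicate block, and without CCL26 replicate 1 or 2 (0.140 and 0.0564), as did Zfp513 without CCL26 replicate 1 or 3 (0.0577 and 0.0590). Zfp263 and Zfp46 were called under all 13.

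The 2 lower members were Zfp710 (-0.25, adjusted p = 0.00615 in edgeR) and Zfp217 (-0.23, adjusted p = 0.0448). Zfp217 had 67.7, 64.0 and 67.1 CPM with CCL26, 82.1 and 73.6 CPM in CX3CL1 replicates 2 and 3, and 18.3 CPM in CX3CL1 replicate 1. Its direction against the CX3CL1 group thus differed between the fits, at 0.19 with all 9 libraries and -0.23 with 8. Without CX3CL1 replicate 2 the counts were 4 higher and 0 lower, and without CX3CL1 replicate 3 they were 3 and 0, each with a single CX3CL1 library that was taken to vary like the other groups. The lower call of Zfp217 was also lost without BSA replicate 1, 2 or 3 or CCL26 replicate 1 or 2, and in the fit with the replicate block (adjusted p = 0.0680).

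Features of the members were set beside the calls of CCL26 against BSA in 8 libraries. Of these features, only mean CPM was used in the choice of members. In that comparison 12.6% of the other genes of at least 5 CPM were called higher and 12.5% lower. The share called lower was 2.76%, 3.52% and 17.4% of other genes in the CPM bins above, from low to high. The share called higher was 7.98%, 11.8% and 13.9%. The subsets that follow were not matched to other genes by level. With the KRAB pattern 11 of 69 members rose (15.9%) and 2 fell (2.90%), and without it 17 of 92 rose (18.5%) and 7 fell (7.61%); the medians were 0.10 and 0.09. By finger motifs 8 of 42 members with 0 to 5 rose and 5 fell, 9 of 44 with 6 to 10 rose and 2 fell, and 11 of 75 with 11 or more rose and 2 fell. Among the 112 members with little shared sequence and no exon overlap 21 rose (18.8%) and 6 fell (5.36%). The differences between these subsets were not tested. Spearman's rho of the log2 fold change with exon length was 0.15 across members and 0.19 across other genes, and with mean CPM it was -0.22 and -0.21. Of the promoters matched, a GC box was in 12 of 22 members that rose, 2 of 7 that fell and 60 of 103 not called, and a CCAAT box in 13, 3 and 45. The ETS core was in 4, 2 and 14 of them, and the E box in 3, 1 and 7. The AP-1 motif was in 1, 0 and 5, and the interferon response motif in 1, 0 and 0. Shares over other genes are given with the promoters above.

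Many numbered Zfp genes lie in clusters, and 69 members formed 20 groups of neighbours within 200 kb. Of these 69 members 13 rose (18.8%) and 1 fell (1.45%) with CCL26 against BSA in 8 libraries, against 17.9% and 5.56% of all 162 members. The shares were 12.6% and 12.5% of the other genes of at least 5 CPM, and 9.74% and 9.26% of all tested genes. In the CPM bins above, from low to high, 7.98%, 11.8% and 13.9% of other genes were called higher and 2.76%, 3.52% and 17.4% lower. The members in groups of neighbours were not matched to other genes by level. All fold changes were positive in 7 of the 20 groups, called or not, such as Zfp263 (0.49) with Zfp597 (0.14) and Zfp316 (0.65) with Zfp12 (0.18), and the other 13 groups held both directions. In the group at chr17:32765496-33005457 Zfp811 (1.19) and Zfp871 (0.30) rose, while Zfp952 (0.28) and Zfp472 (-0.29) were not called. In the group at chr17:21383748-21588699 Zfp948 fell by 0.85, while Zfp677, Zfp51, Zfp53 and Zfp52 stood between -0.12 and 0.02 and were not called. Zfp871 had 101.0, 106.8 and 93.9 CPM with CCL26 and 81.7, 82.1 and 81.7 CPM with BSA, with an adjusted p of 0.000668 in edgeR.

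Genes of the KRAB pathway and of other zinc finger families were read from lists in the same fit. Of 30 tested corepressor and heterochromatin genes 4 rose (13.3%) and 5 fell (16.7%) with CCL26 against BSA, near the 12.6% and 12.5% of the other genes of at least 5 CPM, with a median of 0.05. Trim28, the corepressor bound by KRAB domains, averaged 235.0 ± 13.6 CPM with CCL26 and 295.8 ± 8.02 CPM with BSA (SD, n = 3 each), a log2 fold change of -0.33 with an adjusted p of 7.64e-06 in edgeR. Atf7ip, a partner of the histone methyltransferase Setdb1, fell by 0.33, and Setdb1 itself, named after its value was seen, stood at -0.06 and was not called. Daxx, a histone chaperone, averaged 78.0 ± 4.95 CPM with CCL26 and 43.6 ± 5.70 CPM with BSA, and rose by 0.84. Uhrf1, which recruits DNA methylation, rose by 0.31.

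Of 35 tested Zbtb genes, which join a BTB domain to zinc fingers, 7 rose (20%) and 3 fell (8.57%), with a median of 0.16. The shares were 9.74% and 9.26% of all tested genes, and 12.6% and 12.5% of the other genes of at least 5 CPM. Neither the Zbtb genes nor the families that follow were matched to other genes by level. Of 16 Zscan and Zkscan genes 3 rose (18.8%) and 0 fell (median 0.19), and of 19 Zc3h genes, whose fingers are of the CCCH type and bind RNA, 6 rose (31.6%) and 1 fell (5.26%, median 0.15). Of 22 Znf genes and Zfp genes with a letter suffix 2 rose (9.09%) and 1 fell (4.55%). With all 9 libraries 1 gene of these lists was called for CCL26 against BSA, Zbtb2, which fell (-0.70, adjusted p = 0.0343 in edgeR).

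Markers of cell types moved in the same comparison. Of 10 macrophage markers 7 fell and 0 rose with CCL26 against BSA in 8 libraries. There 9.26% of all tested genes were called lower and 9.74% higher. Among the 6033 other genes above 24.2 CPM these shares were 17.4% and 13.9%. The summed level of the macrophage markers ran from 25130 to 25660 CPM with CCL26 and from 30950 to 31500 CPM with BSA. Lyz2, which makes up most of this sum, averaged 18340 ± 281 CPM with CCL26 and 23490 ± 287 CPM with BSA. Of 9 tested granulocyte genes 2 rose, S100a8 and S100a9, and their sum ran from 79.4 to 84.3 CPM with CCL26 and from 64.8 to 70.3 CPM with BSA. Of 2 measured B cell genes 1 fell, Cd79b, and 0 of 5 listed erythroid genes were measured. The single measured genes of the lists of T and NK cells and of mast cells and eosinophils, the 3 tested dendritic cell genes and the 4 tested stromal genes were not called, and their sums stayed below 5 CPM in the CCL26 and BSA libraries. Of 6 RNAs retained in the nucleus 1 rose, Malat1, and their sum ran from 305.2 to 329.7 CPM with CCL26 and from 257.6 to 309.3 CPM with BSA. The part of these differences in the Zfp values was not tested.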

How the data were processed

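Total RNA of 9 libraries, 3 per group, was read in pairs on a NovaSeq instrument from NEBNext Ultra II libraries, per the labels' protocols. The authors deposited 1 table of whole-number counts per gene, not normalized. STAR, featureCounts and MultiQC, and the builds GRCm38 and mm10, stand in the submitters' processing notes; versions and strand setting are not given in the sources used here. Columns were matched to libraries by the sample codes of the labels, and 0 columns of values were left unmatched.

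Counts were filtered with filterByExpr, scaled by TMM and tested with the quasi-likelihood F test of edgeR 4.0.16 (R 4.3.3), with Benjamini-Hochberg adjustment over all genes tested and a threshold of 0.05, in 1 fit over 9 libraries (12915 genes) and 1 over 8 (13245 genes). Log2 fold changes are those of the group named first over the other. CPM use TMM-scaled library sizes, and levels per library were compared as log2(CPM + 0.5). Alternatives used DESeq2 1.42.0 and limma 3.58.1, among others. Gene structure came from GENCODE M21 (GRCm38) and promoters from RefSeq (GRCm38.p6). The scripts were tested on simulated counts.

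The members, gene lists and tests were chosen with earlier results of these data known. Genes named are, per comparison and fit, up to 8 called members per direction by size (or, with fewer than 4 called, the 4 with the smallest p), the 10 of highest mean CPM, the list of known role, 3 on each side of the CPM limit, and up to 4 genes of each other list by smallest p. Genes outside this rule are marked as such or stand for a cluster of neighbours.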

Additional observations from a re-analysis of the deposited data

How the results depend on the processing

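With 9 libraries, no member was called with limma-voom, with member limits of 2 or 10 CPM, at thresholds of 0.01 or 0.1, with either other scaling, or with either other filter on low counts. For CCL26 against BSA DESeq2 called 1 higher and 2 lower, the 6 libraries of the comparison alone gave 29 and 10, and limma-voom with quality weights, chosen after seeing the data, gave 31 and 9. For CCL26 against CX3CL1 DESeq2 gave 1 higher and the quality weights 10 higher and 1 lower. Leaving out 1 library gave 0 to 29 higher and 0 to 9 lower (CCL26 against BSA), 0 to 8 and 0 to 2 (CCL26 against CX3CL1) and 0 (CX3CL1 against BSA), the highest without CX3CL1 replicate 1. The medians ranged from -0.23 to 0.01 for CX3CL1 against BSA, from 0.07 to 0.11 for CCL26 against BSA and from 0.10 to 0.30 for CCL26 against CX3CL1.

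With 8 libraries, upper quartile scaling gave a median of 0.066 for CCL26 against BSA. A threshold of 0.01 gave 14 higher for that comparison and 5 higher and 1 lower for CCL26 against CX3CL1. Members of 10 CPM or more had a median of 0.064 in that comparison, and members without shared or overlapping sequence, set apart after seeing the data, gave 1 lower. Leaving out 1 further library gave 18 to 29 higher and 7 to 9 lower (median 0.070 to 0.11) for CCL26 against BSA, 3 to 12 higher and 0 to 2 lower (0.060 to 0.11) for CCL26 against CX3CL1, and 0 higher and 0 to 1 lower (-0.01 to 0.02) for CX3CL1 against BSA. All 38 genes called by edgeR for CCL26 against BSA were also called by DESeq2. Among the 26 fold changes of called members recomputed under 13 alternatives each, none reversed; those of the other genes named were not recomputed.

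With the replicate block the counts for CCL26 against BSA stayed at 29 and 9, and those for CCL26 against CX3CL1 were 8 and 1. For libraries of the same number, correlations of the deviations from the group means ran from -0.11 to 0.08, and 0 of 9 pairs exceeded 0.1. For libraries of different numbers they ran from -0.12 to 0.12. With 3 libraries per group, and CX3CL1 replicate 1 apart from the others, this cannot show whether libraries of the same number share a mouse or culture. With 9 libraries the block gave no calls. The low counts of many members limit small changes, and 2 CX3CL1 libraries limit that group.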
